A study of Homo sapiens with 4 samples.

Results

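The genes described here license, fire and copy the origins of DNA replication in KYSE170, an established line of human oesophageal squamous carcinoma cells. They were chosen by name as 52 genes, before any filter, and each had to have an array probe set annotated to exactly 1 gene. All 52 of the 19751 genes measured this way were found, through 100 probe sets, of which 99 carried a value on every array. RNA of untreated cultures was read on 2 arrays, and RNA of cultures kept for 12 h with 50 µg/ml of EDHB on another 2. The compound, or ethyl-3,4-dihydroxybenzoate, is a small ester known to inhibit the oxygen-dependent prolyl hydroxylases. The labels name 1 cell line and no vehicle in the untreated cultures, and they do not say whether arrays of a group came from separate cultures, so p-values measure only the spread between these arrays. The study asked how expression differs after exposure to the compound. Replicate 2 values stood in another row order in the deposited table and were put back by matching untreated levels, while differences within replicate 1 needed no such step. This placed 99.7% of all probe sets, but 115 of the 193 replicate 2 values that stood in lists of at least 2-fold differences, and 15 of the 118 probe sets that differed at least 2-fold in replicate 1 were not placed. The shares over all genes given below therefore lack some strongly changed probe sets, whereas 1 of the 100 member probe sets was not placed.

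Replication starts from origins that are licensed in G1. The origin recognition complex, CDC6 and CDT1 load the ring-shaped MCM2 to MCM7 helicase onto DNA, and geminin (GMNN) blocks CDT1 so that no origin is loaded again. In S phase the kinase pair CDC7 and DBF4, with MCM10, CDC45 and the GINS complex, turns the loaded ring into a moving helicase, after which polymerases, the PCNA clamp and its loader, and enzymes that supply deoxynucleotides build the new strands. Many of these genes are switched on together at the G1 to S transition by E2F transcription factors, so that their messenger RNA is a familiar read-out of proliferation in squamous carcinoma cells.

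The stretches of promoter below are shown because they carry the letters of a known E2F motif in genes that were higher, lower or close to level after EDHB. The motif searched was TTTNNCGC with CC, GG, CG or GC at NN, on either strand, in RefSeq windows of 300 bases (250 before to 50 after each annotated start, GRCh38.p14). At least 1 match stood in the windows of 27 of the 46 genes with a window (58.7%; GINS4, MCM5, MCM4, DSCC1, POLD3 and E2F8 had none), against 3.31% of all 35116 promoter windows, which include noncoding genes. The 46 genes had 60 windows between them and a match in any counted, whereas the share over all promoters counts single windows. Sequences run 5′ to 3′ on the gene's strand, capitals mark the motif, and only bases upstream of the start are printed.
DTL, chr1:212035700-212035747, plus strand: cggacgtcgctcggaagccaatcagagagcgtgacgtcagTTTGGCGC
PCNA, chr20:5126634-5126721, minus strand: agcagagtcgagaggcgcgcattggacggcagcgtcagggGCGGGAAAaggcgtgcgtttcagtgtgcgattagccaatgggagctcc
POLA1, chrX:24693741-24693828, plus strand: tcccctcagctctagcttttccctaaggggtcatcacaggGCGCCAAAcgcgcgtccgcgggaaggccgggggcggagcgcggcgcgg
CDC25A, chr3:48188418-48188501, minus strand: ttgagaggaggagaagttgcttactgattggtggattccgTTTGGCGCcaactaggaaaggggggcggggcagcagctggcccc
UHRF1, chr19:4909944-4910031, plus strand: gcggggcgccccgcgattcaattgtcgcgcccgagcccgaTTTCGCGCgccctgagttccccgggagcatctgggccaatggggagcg
MCM6, chr2:135876548-135876635, minus strand: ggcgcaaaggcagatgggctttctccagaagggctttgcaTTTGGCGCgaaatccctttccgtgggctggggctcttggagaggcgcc
E2F1, chr20:33686386-33686458, minus strand: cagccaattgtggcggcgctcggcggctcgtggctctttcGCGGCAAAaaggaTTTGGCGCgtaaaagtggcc

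These 7 genes were picked for printing after their values were seen. E2F1, which encodes one of the factors, had 2 matches close together, on opposite strands. A match describes letters and not a bound site.

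After EDHB, the replication genes as a group stayed near their untreated level, with small differences in either direction. Over the 52 genes the median difference, EDHB minus untreated, was 0.03 on the log2 scale (0.05 within replicate 1 and 0.04 within replicate 2), against -0.001 over all genes. The largest decrease was that of DBF4 (-0.47 ± 0.09, SE), the activator of the origin-firing kinase, and the largest increase that of E2F7 (0.39 ± 0.10), a repressor of E2F targets. No member differed by more than 0.5, as 2.75% of all genes did.

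None of the 52 passed limma over all genes at a Benjamini-Hochberg adjusted p under 0.05 (smallest adjusted p = 0.141, for DBF4), and 0.0101% of all genes did. When limma's prior variance was allowed to follow intensity, 1.90% of all genes passed (1.07% higher and 0.830% lower), and DBF4 was the only member among them (adjusted p = 0.0454). With that trend, on arrays centred on their medians or scaled by cyclic loess (both added after the data were seen), 4.13% and 4.31% of all genes passed. Each took in 6 members, DBF4 lower and PCNA, RFC4, RRM2, DTL and E2F7 higher. At an unadjusted p under 0.05 there were 14 members, 9 higher (17.3% of members) and 5 lower (9.62%). The same rule took 16.8% of all genes, 8.81% higher and 7.98% lower. All 52 members had a mean level above the median probe set (log2 of 4.54), and among the genes above it the shares were 11.3% higher and 9.60% lower. The 14 became 6 without untreated replicate 1, 4 without untreated replicate 2, 4 without EDHB replicate 1 and 6 without EDHB replicate 2, and 9 when each gene was represented by its most variable probe set.

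Both EDHB arrays lay above both untreated arrays in 19 members (36.5%) and below both in 9 (17.3%), and the groups overlapped in 24. Over all genes the shares were 23.2% above and 22.5% below, and over the genes above the median probe set 28.5% and 25.9%. The member counts depended on the choice of probe set. They were 18 above and 13 below with probe sets averaged, and 17 and 13 with the most variable probe set. Shares over all genes were not computed under these rules. The direction was the same within both replicates for 38 members, of which 27 were higher and 11 lower. Of all 19751 genes, 6114 were higher and 6125 lower within both replicates. In bulk RNA, a change in the share of cells in S phase and a change in RNA per cell cannot be told apart.

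**Figure D1:**
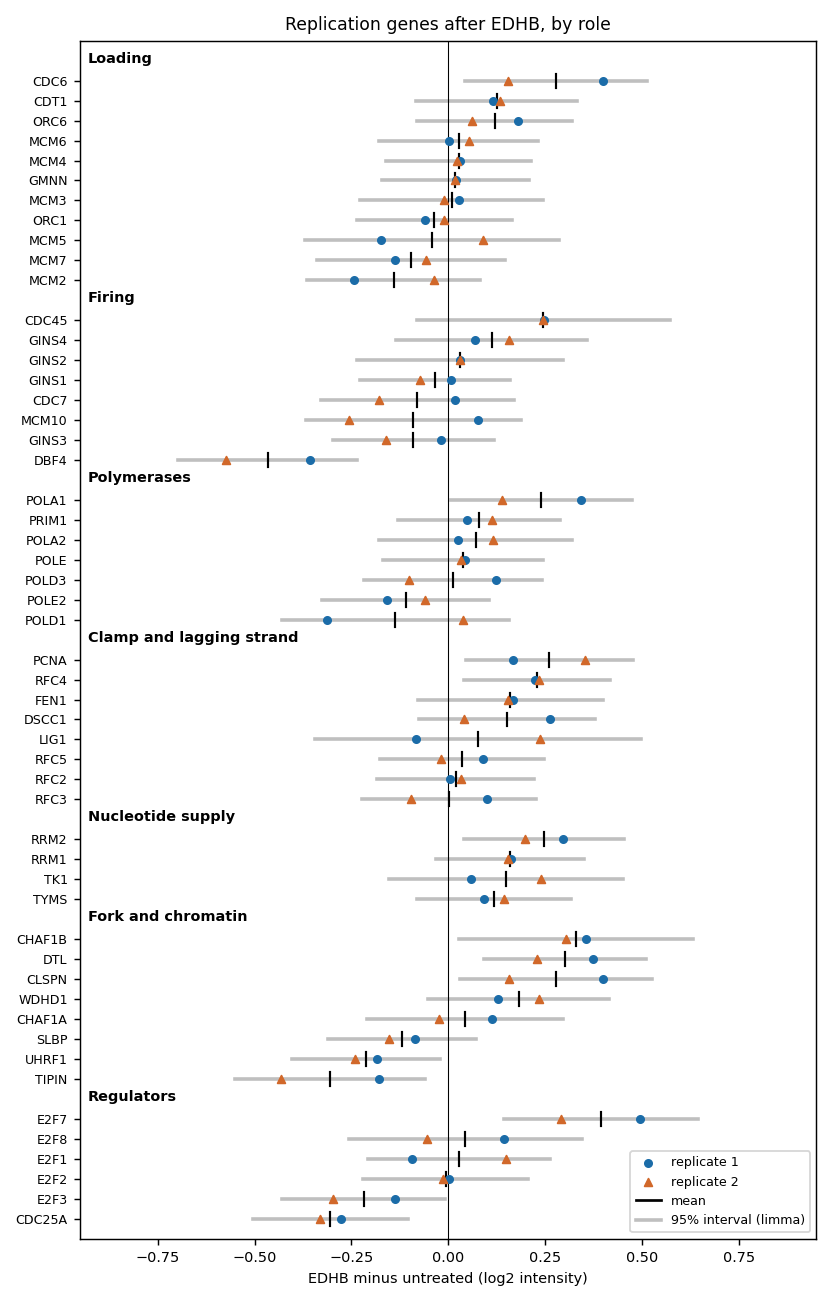
Difference between EDHB and untreated arrays (x axis, log2 intensity) for each of the 52 replication genes, grouped by role. Circles and triangles are replicates 1 and 2, black ticks their mean and grey bars the 95% limma interval, which includes 0 for 38 genes. DBF4 sits lowest at -0.47 and E2F7 highest at 0.39, and the MCM2 to MCM7 means lie between -0.14 and 0.03.

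In the loading group of 11 genes, the MCM ring differed little and CDC6 stood apart. CDC6, the ATPase that joins the origin complex to recruit the helicase, had log2 levels of 9.14 and 9.25 on the untreated arrays and of 9.54 and 9.41 on the EDHB arrays. Both EDHB values exceeded both untreated ones, and the difference was 0.28 ± 0.09 (SE; limma adjusted p = 0.243). A further probe set of CDC6 gave 0.30. The other loading factors differed by less: 0.12 for CDT1, 0.12 for ORC6, -0.04 for ORC1 and 0.02 for GMNN.

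The 6 subunits of the MCM2 to MCM7 helicase had a median difference of -0.02, with 3 above 0 and 3 below. MCM2 was lowest at -0.14 ± 0.09 (SE), followed by MCM7 at -0.10 and MCM5 at -0.04, while MCM3, MCM4 and MCM6 differed by 0.01, 0.03 and 0.03. The 95% limma interval was -0.16 to 0.21 for MCM4 and -0.36 to 0.08 for MCM2. Of the 6, MCM2 alone had both EDHB arrays below the untreated ones and MCM4 alone had both above, the latter by 0.02 to 0.03 on its brightest probe set. The 4 probe sets of MCM4 above the median probe set ran from -0.04 to 0.04. On its most variable probe set MCM6 gave -0.24, at levels of 4.36 to 4.67, close to the median probe set.

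Among the 8 origin-firing genes, DBF4 had the largest difference and CDC45 the next. DBF4 had log2 levels of 9.22 and 9.37 on the untreated arrays and of 8.86 and 8.79 on the EDHB arrays. The groups did not overlap, and the decrease was -0.36 within replicate 1 and -0.57 within replicate 2, a ratio of 0.724. Its adjusted p in limma was 0.141, and over the alternatives it ran from 0.0269 to 0.576. CDC7, the catalytic partner that DBF4 activates, differed by -0.08 ± 0.10 (SE) and its groups overlapped. DBF4 had 1 probe set.

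CDC45, which rides with the MCM ring, had 8.59 and 8.36 on the untreated arrays and 8.84 and 8.61 on the EDHB arrays. Its replicates differed by almost as much as its conditions, yet the increase was 0.25 within replicate 1 and 0.24 within replicate 2 (limma adjusted p = 0.413). The GINS subunits, which complete the active helicase, lay at -0.03 for GINS1, 0.03 for GINS2, -0.09 for GINS3 and 0.11 for GINS4. Their probe sets above the median probe set disagreed in sign for GINS2 and GINS4. MCM10 went 0.08 up in replicate 1 and -0.26 down in replicate 2, for a mean of -0.09 ± 0.11.

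**Figure D2:**
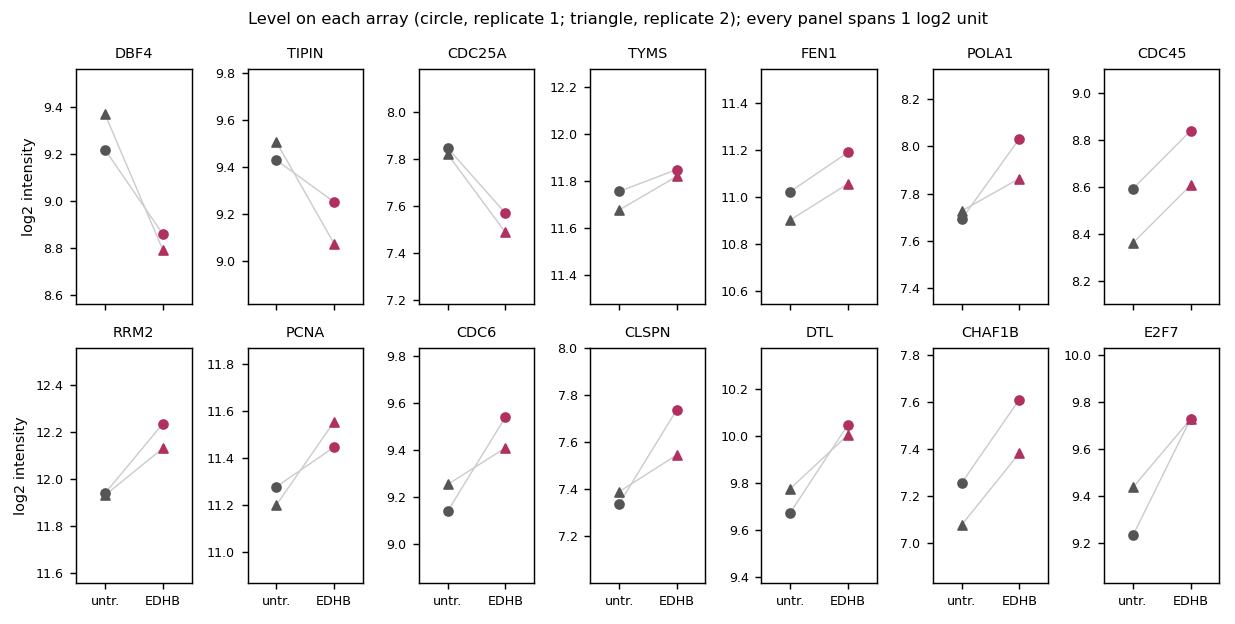
Log2 intensity (y axis) of 14 replication genes on the 4 arrays, with untreated arrays in grey and EDHB arrays in red, circles for replicate 1 and triangles for replicate 2, and lines joining arrays of the same number. DBF4, TIPIN and CDC25A lie lower on both EDHB arrays and the other 11 lie higher, each panel covering 1 log2 unit.

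Among the 7 polymerase and primase genes, POLA1 had the largest difference. POLA1, the catalytic subunit of the polymerase that starts every new strand, had 7.69 and 7.73 on the untreated arrays and 8.03 and 7.86 on the EDHB arrays. The groups stood apart at 0.24 ± 0.09 (SE; limma adjusted p = 0.288). Its partners POLA2 and PRIM1 differed by 0.07 and 0.08. For the leading-strand polymerase the values were 0.04 for POLE and -0.11 for POLE2. For the lagging-strand polymerase they were -0.14 for POLD1 and 0.01 for POLD3, each with replicates of opposite sign.

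On the brightest probe set of each, all 8 genes of the clamp, its loaders and lagging-strand processing lay at or above 0, with a median of 0.11. PCNA, the sliding clamp that tethers polymerases, had 11.28 and 11.20 on the untreated arrays and 11.45 and 11.55 on the EDHB arrays, a difference of 0.26 ± 0.08 (SE; limma adjusted p = 0.239). RFC4, of the clamp loader, had 10.58 and 10.55 untreated and 10.81 and 10.79 with EDHB. That increase of 0.23 exceeded the spread within either group, with an adjusted p of 0.237 in limma. The other loader subunits RFC2, RFC3 and RFC5 differed by 0.02, 0.00 and 0.03, each with overlapping groups, and the contrast with RFC4 was not tested. Further probe sets of RFC3 gave -0.07 and -0.17. FEN1, the flap nuclease, had 11.02 and 10.90 untreated and 11.19 and 11.06 with EDHB (0.16 ± 0.09). DSCC1, of the alternative loader, gave 0.15. The ligase LIG1 gave 0.08, with untreated arrays at 8.31 and 7.86. Its replicates had opposite signs, as did those of RFC3 and RFC5.

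The 4 genes of deoxynucleotide supply were all higher, in both replicates, with a median of 0.15. RRM2, the regulated subunit of ribonucleotide reductase, had 11.94 and 11.93 on the untreated arrays and 12.24 and 12.13 on the EDHB arrays, and its second probe set gave 0.31 beside 0.25 (limma adjusted p = 0.240). RRM1, the large subunit of that enzyme, differed by 0.16 on its brighter probe set and 0.31 on the other. TYMS, which makes thymidylate, had 11.75 and 11.67 untreated and 11.85 and 11.82 with EDHB, a difference of 0.12 ± 0.08. The salvage enzyme TK1 gave 0.15 ± 0.12 (SE), and its groups overlapped.

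Fork protection, chromatin assembly and replication-coupled turnover genes split in both directions, and 7 of these 8 had groups that did not overlap (4 higher, 3 lower), where 28.5% of genes above the median probe set lay apart as higher and 25.9% as lower. DTL, the substrate receptor of the ubiquitin ligase that removes CDT1 in S phase, had 9.67 and 9.78 untreated and 10.05 and 10.01 with EDHB. Its difference was 0.30 ± 0.08 (SE; limma adjusted p = 0.190), with 0.29 on a further probe set. CHAF1B, of the chromatin assembly factor that loads histones behind the fork, had 7.25 and 7.08 untreated and 7.61 and 7.38 with EDHB, a difference of 0.33 ± 0.12. CHAF1A, its large partner, gave 0.04 ± 0.10.

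CLSPN, the adaptor claspin that carries the checkpoint signal from stalled forks, had 7.34 and 7.39 untreated and 7.74 and 7.55 with EDHB. All 4 of its probe sets were higher, by 0.16 to 0.46. TIPIN, a fork protection protein that works beside claspin, went the other way, with 9.43 and 9.51 untreated and 9.25 and 9.08 with EDHB (-0.30 ± 0.10; limma adjusted p = 0.231). UHRF1, which brings the maintenance DNA methyltransferase to new DNA, differed by -0.21 ± 0.07, and the histone mRNA binding protein SLBP by -0.12. WDHD1, which couples the helicase to polymerase alpha, gave 0.18 ± 0.09.

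The 6 regulators of the G1 to S programme also diverged. E2F7 had log2 levels of 9.23 and 9.44 untreated and of 9.73 on each EDHB array (limma adjusted p = 0.172), a ratio of 1.31. A second probe set of E2F7 gave 0.08. E2F8, the other repressor of this kind, differed by 0.04 ± 0.12. Of the activating factors, E2F3 lay lower by -0.22 ± 0.08, while its second probe set gave -0.08. E2F1 and E2F2 gave 0.03 and -0.01, with 1 further probe set of E2F2 at -0.30. A second probe set of E2F1 could not be placed in replicate 2 and was 0.12 higher within replicate 1.

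CDC25A, the phosphatase that releases cyclin-dependent kinases for S phase entry, had 7.85 and 7.82 untreated and 7.57 and 7.49 with EDHB. The groups were apart by more than their spread (-0.30 ± 0.08; limma adjusted p = 0.180). Its 3 probe sets gave means of -0.30 to -0.28. Those not used for the gene differed between replicates, with -0.05 and -0.10 within replicate 1 and -0.50 and -0.48 within replicate 2. Members with several probe sets mostly behaved alike: of 28 genes with at least 2 above the median probe set, 23 had the same sign on all of them.

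Genes with an E2F motif were found on both sides of 0, as were those without it, and the difference between them was not tested. The 27 with the motif had a median difference of 0.02 and ran from -0.30 to 0.30, with 16 above 0, and 7 of them had EDHB arrays above and 7 below both untreated arrays. In the 19 without it the median was 0.12, the range -0.47 to 0.39 and 14 were above 0, with EDHB arrays above both untreated arrays in 10 and below both in 2. DBF4 and E2F7, at the extremes, were both in the second group, while DTL, PCNA and POLA1 (higher) and CDC25A and UHRF1 (lower) carry the stretches printed above. The CCAAT box (CCAAT, either strand) stood in windows of 28 of the 46 genes and in 34.6% of all windows. The letters TTTGAA or TTCGAA, known as the CHR of genes expressed in G2 and mitosis, stood in the windows of 4 members, DBF4, E2F3, MCM6 and RRM1, and in 16.4% of all windows. For these motifs too, a gene counted if any of its windows matched, while the shares over all windows count single windows. The E2F letters overlapped one of the other motifs in 5 of all windows.

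The rest of the replication pathway, listed apart from the members, held larger single differences around a similar median. Of 53 measured genes, such as further origin, RPA and cyclin genes, none passed limma over all genes, and 3 passed with the intensity trend, as 1.90% of all genes did. These 3 were cyclin E2 (CCNE2), the histone chaperone ASF1B and the E2F family member E2F5. Cyclin E2 is a partner of CDK2 at the G1 to S transition. CCNE2 had 9.26 and 9.52 untreated and 10.22 and 10.19 with EDHB (0.81 ± 0.11, adjusted p = 0.0246 with the trend). ASF1B was higher by 0.53 ± 0.09 (adjusted p = 0.0446 with the trend). E2F5 had 7.01 and 7.23 untreated and 6.25 and 6.19 with EDHB, a difference of -0.90 ± 0.10 (adjusted p = 0.0263 with the trend). MTBP gave 0.40, and CCNA2 and the origin subunit ORC5 gave -0.39 and -0.38, without passing either fit. The median over the 53 was 0.04, with 31 above 0. EDHB arrays lay above both untreated arrays in 22 (41.5%) and below both in 16 (30.2%), against 23.2% and 22.5% of all genes. All 53 were above the median probe set, and over all genes above it the shares were 28.5% and 25.9%.

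**Figure D3:**
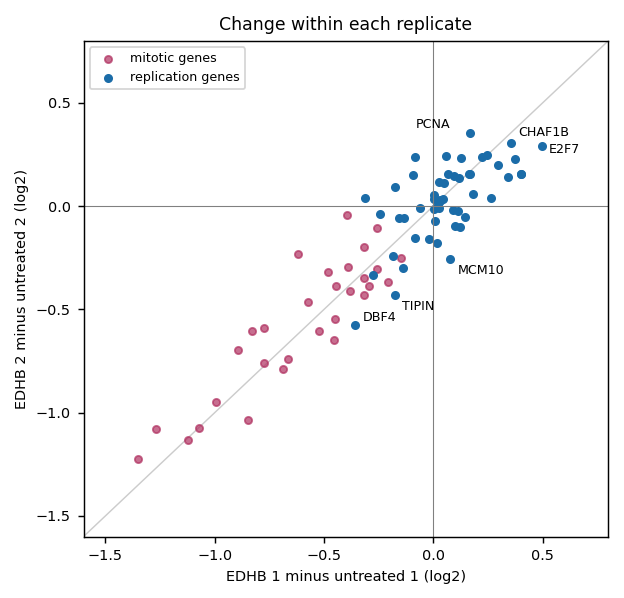
Difference between EDHB and untreated within replicate 1 (x axis) and within replicate 2 (y axis), in log2 units, for 52 replication genes (blue) and 30 mitotic genes (red), with the diagonal in grey. The mitotic genes lie below 0 on both axes, whereas the replication genes surround 0, with 27 above 0 and 11 below 0 on both axes. Of all 19751 genes, which are not drawn, 6114 were above 0 and 6125 below 0 in both replicates.

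A list of 30 genes of mitosis served for comparison, since both programmes mark proliferating cells. All 30 were lower in both replicates, with a median of -0.51 and a range of -1.29 to -0.18, while the replication members ran from -0.47 to 0.39. With the intensity trend 19 of the 30 and 1 of the 52 passed in limma, both as decreases, as 0.830% of all genes did. Without the trend, 0 genes of either list passed. The proliferation marker MKI67 had 9.05 and 8.91 untreated and 8.88 and 8.49 with EDHB. Because the lists were drawn up with results known, the difference between them was described and not tested. Of 17 listed genes known to be induced by hypoxia, 14 were measured. In all 14, both EDHB arrays lay above both untreated arrays, as in 23.2% of all genes, and the median difference was 0.87. KDM3A alone of the 14 lay below the median probe set, among the dimmest of all genes, so its difference says little about that gene.

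**Figure D4:**
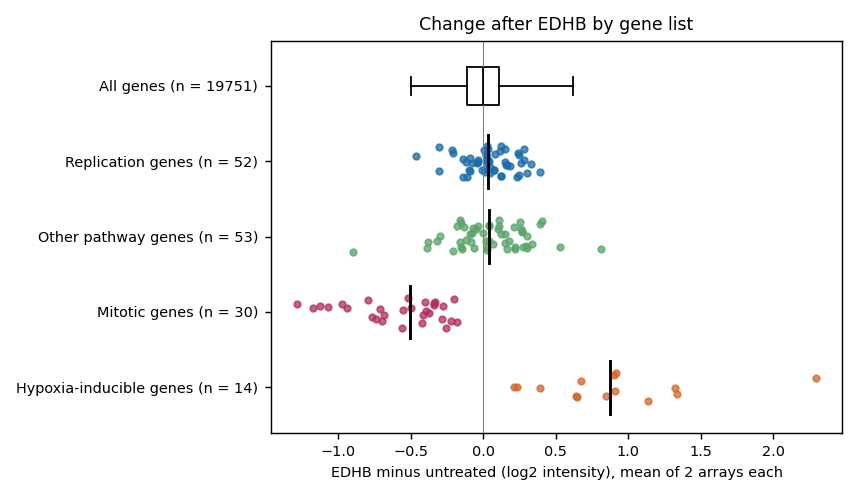
Difference between EDHB and untreated (x axis, log2 intensity, means of 2 arrays each) by gene list. The box for all genes shows the quartiles with whiskers from the 1st to the 99th percentile, points are single genes and black bars medians, which lie at 0.03 for replication, 0.04 for the other pathway genes, -0.51 for mitosis and 0.87 for hypoxia.

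The samples carried the marks of squamous epithelium, with SOX2 between 8.70 and 8.95, TRIM29 between 8.79 and 9.19 and DSC3 between 8.33 and 8.44 on the 4 arrays, although KRT14 lay between 3.19 and 4.30, below the median probe set. Of 9 measured squamous markers 8 were above it, against 3 of 8 fibroblast, 1 of 5 haematopoietic and 2 of 5 endothelial markers. Summed linear intensity of the squamous list was 14295 to 14635 untreated and 15025 to 15755 with EDHB, and that of the fibroblast list 199 to 200 and 190 to 191. The squamous sum came mostly from SFN (log2 of 12.78 to 12.91) and PERP (12.40 to 12.58). KRT5 lay between 6.17 and 6.77 and DSG3 between 5.88 and 6.32. PTPRC, which defines leukocytes, lay between 1.68 and 2.21. The part of these differences in the results was not tested. Median linear intensity was 23.3 to 23.5 across arrays. With so few arrays precision was limited, the median 95% half-width for a member being 0.23 log2 units.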

How the data were processed

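The deposited table held linear intensities per probe set, made by the authors with RMA per the submitters' processing notes (its version was not given in the sources used here). That method equalises the intensity distributions of arrays, so a global difference would be removed. Intensities were turned into log2 values. The replicate 2 columns stood in another row order. Their order matched separate sheets per replicate (148 probe sets at least 2-fold higher, 45 lower, an empty row, then 54419 others in ID order), laid side by side and sorted by the replicate 1 IDs. This layout is inferred from the values. Identities were recovered by a forward-backward alignment comparing untreated arrays only (t density, scale 0.15, 3 degrees of freedom), and rows with a posterior of at least 0.95 were kept, 54463 of 54613. Matching on untreated levels favours small differences between the untreated arrays, and so may make p-values too small. On simulated data with these assumptions, 54481 rows were restored and 0 wrongly. The simulated noise followed the same density, so this did not test the assumptions. In the measured data, 90 of 93 restored values of the higher list and 19 of 22 of the lower list had the same sign in replicate 1. EDHB arrays correlated at 0.418 as deposited and 0.997 after restoring, log2 changes at 0.04 and 0.38.

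For a gene, the restored probe set of highest mean level was used, among 41091 annotated to 1 gene. All 52 member symbols matched RefSeq by gene identifier. The groups were compared in R 4.3.3 with limma 3.58.1 (lmFit, then eBayes without a block, and Benjamini-Hochberg adjustment over 19751 genes). On simulated data of 19751 genes, 0% of those altered by 0.5 log2 were called, 64% of those altered by 1 and 96% by 2, with 7 wrong calls. These shares depend on how many genes were altered and do not give the power in the measured data. There, 2 genes passed in all, and CDC20 at -1.29 and NDRG1 at 2.30 did not (limma adjusted p = 0.0704 and 0.0785). Alternatives covered the prior, scaling, probe set, posterior, dim genes, pseudocount, block and each array left out. Members and lists were chosen with earlier results of these data known. Array values are given for the 12 members with the largest difference, the 4 brightest and those called, with some others added after their values were seen. The numbers 1 and 2 are shared by the groups, and the labels do not say that they mark pairs. Python 3.11.15 with numpy 2.4.6 was used for the alignment, motifs and plots.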

Additional observations from a re-analysis of the deposited data

How the results depend on the processing

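The count of members passing over all genes stayed at 0 under every alternative run with limma except 3 that used the intensity trend: it was 1 with the trend, 6 with the trend on arrays centred on their medians and 6 with the trend after cyclic loess. The last pair was added after the data were seen, and the 6 were DBF4, PCNA, RFC4, RRM2, DTL and E2F7 in both. The 14 members at an unadjusted p under 0.05 became 9 with the most variable probe set and 4 to 6 when 1 array was left out (lone samples were assumed to vary like the others), and the median member difference was 0.01 to 0.08 there. All 14 had groups that did not overlap, so leaving out 1 array could not change their direction. The 2 genes called in all became 375 with the trend, 816 and 851 with the trend on centred or loess-scaled arrays, 36 with centring, 7 with loess, 426 without dim genes, 37 with probe sets averaged, 79 with a pseudocount of 16, 0 with a posterior minimum of 0.5 and 0 without any 1 array. With a replicate block, 0 genes and 0 members passed, and 10 members had an unadjusted p under 0.05. Deviations of equal-numbered arrays correlated at 0.21 across genes, and the labels do not say that numbers pair the cultures. Scaling moved the median of all genes by less than 0.01. The causes were not tested.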
